A study of Solanum lycopersicum and Solanum pennellii with 32 samples.

Results

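The growing tip of the tomato root was compared with the mature part of the same root in Solanum lycopersicum M82, a cultivated tomato, under sufficient phosphate. All 8 libraries labelled M82 and sufficient phosphate were used, 4 from tips and 4 from midsections, out of 32 libraries in the series. A tip sample was the last 1 cm of the root, and a midsection sample was about 2 cm of tissue from midway along it. Plants in every group carried a 35S:TRAP construct, in which a promoter active in most tissues drives a tagged ribosomal protein, and were 8 to 10 days past germination. The labels describe total RNA, so the values are treated as total transcript levels, and each replicate pooled 30 to 40 plants. The same positions of M82 at limiting phosphate, 8 further libraries of plants of the same construct and age grown without added phosphate, entered the same statistical fit and served as a second set of tips and midsections.

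A root tip holds the root cap, the meristem in which cells divide, and the zone in which they elongate. Further back, cells have differentiated into root hairs, conducting vessels and an endodermis with water-tight walls, and uptake and long-distance transport take place there. Tissue from both positions is a mixture of cell types, and in such bulk samples fewer cells of a type and less RNA per cell cannot be told apart.

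The deposited table names genes by Solyc ID alone, and 0 of 34843 IDs matched the RefSeq gene table used here. Genes are therefore described as groups, and 4 are named by ID without a role. The labelled tissues could not be checked against marker genes for the same reason.

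Depth ranged from 1406650 to 34103546 counts in the tip libraries and from 1084652 to 9095141 in the midsection libraries. Spearman correlations between libraries, computed across genes, which are not independent replicates, were 0.776 to 0.915 among tips, 0.789 to 0.921 among midsections and 0.572 to 0.75 between the positions. Tip replicate 4 stood somewhat apart from the other tips, with correlations of 0.776 to 0.805. Midsection replicate 1 was the midsection library in which genes higher in the tip were most often highest, in 988 of 2443 such genes (40.4%), against 16.3% to 25.2% in the other 3. Among genes lower in the tip, tip replicate 2, the deepest library, was most often the highest tip, in 914 of 2417 genes (37.8%).

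A large part of the measured transcriptome differed between tip and midsection, in equal numbers each way. Of 18275 genes tested, 4992 (27.3%) were called, 2496 with more (13.7%) and 2496 with less transcript in the tip (quasi-likelihood test of edgeR with Benjamini-Hochberg adjustment, threshold 0.05, n = 4 and 4). The median called gene differed 4.91-fold where the tip was higher and 4.33-fold where it was lower. A test against a difference of 2-fold, rather than against 0, called 2320 genes (12.7%), 1189 higher (6.51%) and 1131 lower (6.19%). Tips and midsections were fully separated in 1851 of the genes called higher and 1948 of those called lower, and in 24.3% of all tested genes. A fit of these 8 libraries alone called 3272 of 16030 genes (20.4%), 1586 higher (9.89%) and 1686 lower (10.5%).

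The calls covered the whole range of transcript levels. The libraries read transcript 3' ends, so a count does not grow with the length of the transcript. Levels are given in CPM (counts per 1000000, scaled between libraries). How well such levels compare between genes was not tested, and 28.2% of tested genes held fractional estimates in some M82 library. With genes split into 5 equal bands by mean level, the lowest band reached 4.88 CPM. There 11.0% were called, and the median standard error of a log2 fold change was 1.6. In the highest band, from 70.8 CPM upward, 49.3% were called, 842 genes higher and 959 lower in the tip, with a median standard error of 0.282. Genes called higher in the tip had a median level of 64.9 CPM there and 12.2 CPM in the midsection. Genes called lower had 77.5 CPM in the midsection and 17.4 CPM in the tip. The 13283 genes without a call were mostly undecided, since the 95% interval of the difference lay inside 2-fold in both directions for 1550 of them (11.7%).

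**Figure D1:**
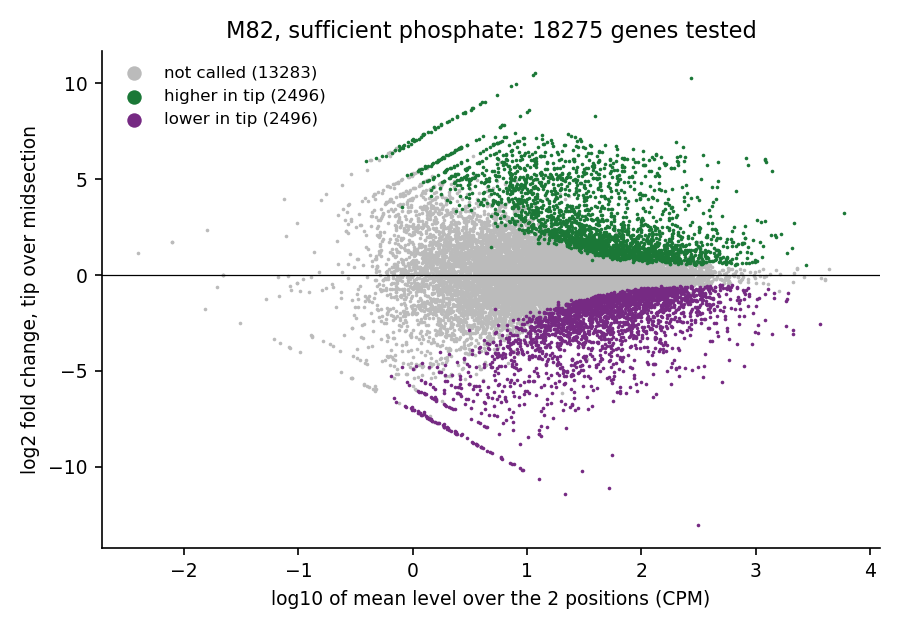
Each point is 1 of the tested genes, with its log10 mean level in CPM over both positions on the horizontal axis and its log2 fold change of tip over midsection on the vertical axis. Green points are the 2496 genes called higher in the tip, purple points the 2496 called lower and grey points the 13283 without a call; 6 genes with no count in the 8 libraries are not drawn.

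The most abundant transcripts changed places between the positions. Of the 100 most abundant genes of each position by mean CPM, 41 were common to both. Of the tip's 100, 64 were called higher in the tip, 8 lower and 28 were not called. Of the midsection's 100, 60 were called lower in the tip, 7 higher and 33 were not called. Among the top 10, 4 were shared. Being abundant in 1 position favours a call in that direction, so these counts are a description.

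How far a library was concentrated in few genes, and how many genes it held, did not separate the positions. The 100 most abundant genes of a library held 14.3%, 16.2%, 15.5% and 16.7% of the counts in tips 1 to 4, and 14.7%, 14.7%, 14.3% and 15.8% in midsections 1 to 4. The mean difference was 0.81 percentage points (exact permutation test, two-sided p = 0.229, n = 4 and 4), where 0.0286 is the smallest p this design allows. After thinning each library to 1000000 counts, 16884, 17625, 17331 and 13697 genes were detected in tips 1 to 4, and 15728, 17193, 15301 and 16518 in midsections 1 to 4. The groups overlapped (exact permutation test, two-sided p = 0.886). Tip replicate 4 held the fewest, and without it tips averaged 1100 more detected genes (exact permutation test, p = 0.114).

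Differences over 16-fold were counted more often on the side of the tip. Of the genes called higher in the tip, 731 (29.3%) exceeded 16-fold, against 482 (19.3%) of those called lower. The tip had the larger number and the larger share in each of 17 alternative fits, with 490 to 793 genes against 288 to 515. Over 64-fold the sides were close, with 217 (8.69%) of the genes called higher and 198 (7.93%) of those called lower. Together the 731 genes held 4.47%, 5.89%, 5.64% and 7.09% of the counts in tips 1 to 4, and 0.233%, 0.148%, 0.129% and 0.0885% in midsections 1 to 4. The 482 genes held 2.51%, 2.41%, 3% and 2.85% of the counts in midsections 1 to 4, and 0.0959%, 0.0892%, 0.116% and 0.0375% in tips 1 to 4. Both sets were chosen on these libraries, so the separation is a description.

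Among called genes at 20 CPM or more in the higher position, the sizes of the tip's differences did not fall off evenly. The number of genes higher in the tip was 168 between 3 and 4 on the log2 scale, 136 between 4 and 5, 150 between 5 and 6, and 72 between 6 and 7. For genes lower in the tip the same steps held 231, 107, 62 and 27. The rise at 5 to 6 on the tip side was small and not stable. That step stayed above the one before it in 12 of 17 alternative fits, but not after thinning to 1000000 counts, nor without midsection replicate 1 or 4 or tip replicate 2 or 3. Without midsection replicate 1 the steps held 176, 132, 109 and 100 genes higher in the tip, with 44 between 7 and 8 in place of 8.

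In midsection replicate 1, the strongly tip-high genes stood at a narrower range of fractions of their tip level than in midsection replicates 2 and 4. Over the 371 of the 731 genes that averaged 20 CPM or more in tips, the median was 3.3% of the tip mean, with quartiles of 2.41% and 4.9%, and 7 of the genes had no count. In midsection replicate 2 the median was 2.01%, but the quartiles lay further apart, at 0.806% and 4.45%. Midsection replicate 4 had a median of 0.863% with quartiles of 0.451% and 1.94%. Midsection replicate 3, the shallowest, had a median of 0.815%, and 156 of the genes had no count. The ratio of upper to lower quartile was 2.04 in replicate 1, 5.52 in replicate 2 and 4.29 in replicate 4. Replicates 2 and 4 had no count for 19 and 32 of the genes, and low counts by themselves widen the quartiles. In limiting midsections 1 to 4 the same genes had ratios of 4.58, 4.55, 4.16 and 10.6, with no count for 7, 10, 2 and 34 of them. How much of the spread came from low counts was not tested. The cut at 16-fold also bounds the fractions at sufficient phosphate, where it was made. The midsection means, and with them the folds, of such genes rest in part on replicate 1. Whether tip tissue or reads were carried over into it was not tested. The number of genes called was 4808 without it, 2449 higher and 2359 lower in the tip.

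**Figure D2:**
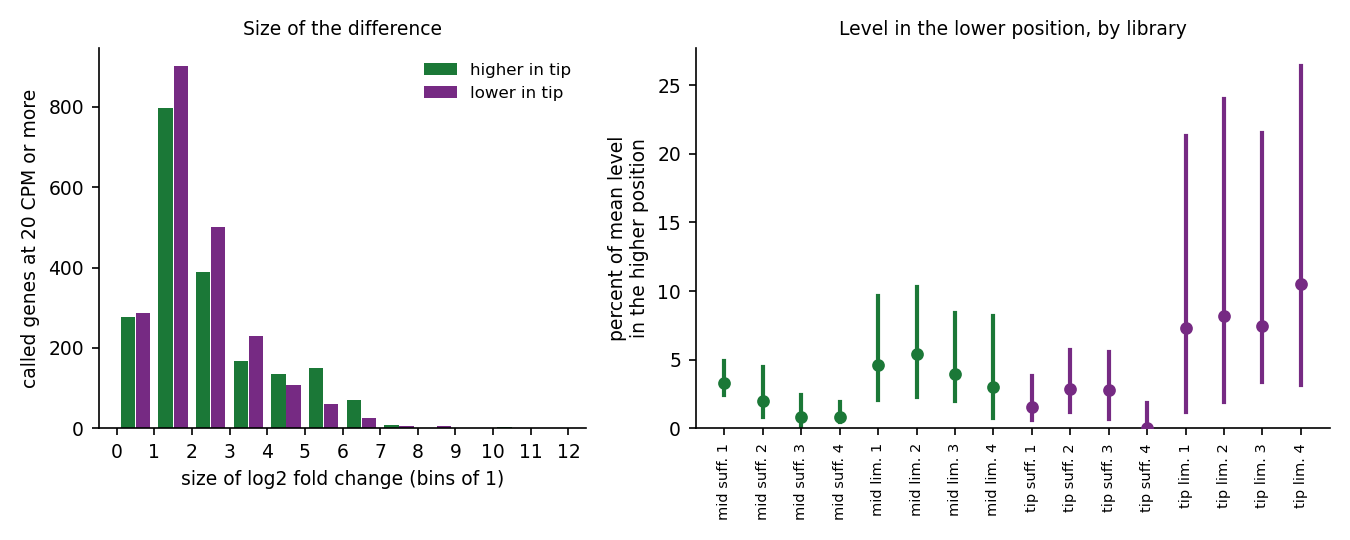
Left, the number of called genes at 20 CPM or more by the size of their log2 fold change, in bins of 1, for genes higher (green) and lower (purple) in the tip. Right, for genes over 16-fold apart, the level in each library of the lower position as a percent of the mean level in the higher position at sufficient phosphate (points are medians over 371 tip-high or 215 midsection-high genes, bars span the quartiles); the bar of midsection replicate 1 at sufficient phosphate runs from 2.41 to 4.9.

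Some genes were found in 1 position without a single rounded count in the other. Of the called genes, 53 that were higher in the tip had no count in the 4 midsections, and 79 that were lower had none in the 4 tips. Among all tested genes, 81 had no count in the midsections and 111 none in the tips. Small fractional estimates can round to no count. Fractional estimates in some M82 library occurred in 28 of the 53 and 41 of the 79, against 28.2% of all tested genes. Bounds were taken from counts pooled over the 4 libraries of a group, and tip replicate 2 held 31691387 of the scaled tip depth of 39223865. Against a floor of 3 counts per group in the position without any, the 53 were at least 2.89 to 198-fold higher in the tip, with a median bound of 22.9. The 79 were at least 7.99 to 572-fold higher in the midsection, with a median bound of 47.9. These were low transcripts, with medians of 2.74 and 3.78 CPM in the position that held them, and 11 of the 53 and 27 of the 79 had counts in all 4 libraries there. Floors and intervals from counts cover counting error alone, since the reads are not independent molecules.

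Among abundant genes counted in whole reads throughout, 4 had the largest differences by the naming rule, which took non-overlapping called genes at 50 CPM or more. The rule admitted 847 genes higher and 1005 lower in the tip. The digits after Solyc are the chromosome by the naming convention of tomato gene models, and place the 4 on chromosomes 3, 6, 9 and 12. Their roles are not annotated in the sources used here.

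Solyc03g083710.1.1 stood at 49.1, 29.9, 48.3 and 79.8 CPM in tips 1 to 4, and at 0.74, 0, 0.931 and 0.125 CPM in midsections 1 to 4. Every tip lay well above every midsection. The means were 51.8 ± 20.7 and 0.449 ± 0.456 CPM (SD, n = 4 each). On the log2 scale they differed by 7.22 ± 0.98 (SE; edgeR, adjusted p = 1.01e-06). The midsection mean rested on 8 counts. The ratio of the means was 115, and with 1 library left out it ranged from 86.5 (midsection replicate 2) to 180 (midsection replicate 3).

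Solyc06g007910.3.1 stood at 45.1, 61.1, 57.2 and 73.6 CPM in tips 1 to 4, and at 1.23, 0, 0 and 0.25 CPM in midsections 1 to 4. The tips differed from each other by less than they differed from any midsection. The means were 59.2 ± 11.7 and 0.371 ± 0.587 CPM (SD, n = 4 each). The log2 difference was 6.99 ± 0.84 (SE; edgeR, adjusted p = 1.21e-07). Of its 12 midsection counts, 10 were in replicate 1. The ratio of the means was 160, or 711 without that library, which left 2 midsection counts. It was lowest at 120, without midsection replicate 2 or 3.

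Solyc09g092470.2.1 was the reverse, at 0, 0.852, 0.635 and 0 CPM in tips 1 to 4 and at 19.2, 82.5, 53 and 117 CPM in midsections 1 to 4. Midsection replicate 1 was the lowest of its group and still above every tip. The means were 0.372 ± 0.438 and 67.8 ± 41.5 CPM (SD, n = 4 each), a log2 difference of -6.98 ± 1.03 (SE; edgeR, adjusted p = 1.03e-05). Of its 28 tip counts, 27 were in the deepest library, replicate 2. The ratio of the means was 182, or 320 without that library, which left 1 tip count. It was lowest at 137, without tip replicate 1 or 4.

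Solyc12g010910.2.1 stood at 0.427, 0.631, 0 and 0 CPM in tips 1 to 4 and at 55, 37.2, 65.1 and 66.4 CPM in midsections 1 to 4. The midsections were close together and far above the tips. The means were 0.265 ± 0.317 and 55.9 ± 13.5 CPM (SD, n = 4 each), and the log2 difference was -6.94 ± 0.93 (SE; edgeR, adjusted p = 7.84e-07). The ratio of the means was 211, or 393 without tip replicate 2, which held 20 of the 22 tip counts. It was lowest at 159, without tip replicate 3 or 4.

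All 4 genes kept their direction at limiting phosphate with a smaller fitted difference. The log2 fold changes there were 4.02 and 4.52 for the tip-high pair and -4.49 and -4.59 for the midsection-high pair, with edgeR adjusted p of 0.000521, 3.23e-05, 0.000655 and 0.000112. The change between phosphate levels did not pass the test in any of the 4 (edgeR interaction test, adjusted p 0.21, 0.283, 0.417 and 0.398). The 4 were chosen for their large differences at sufficient phosphate, which by itself lowers their differences elsewhere.

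**Figure D3:**
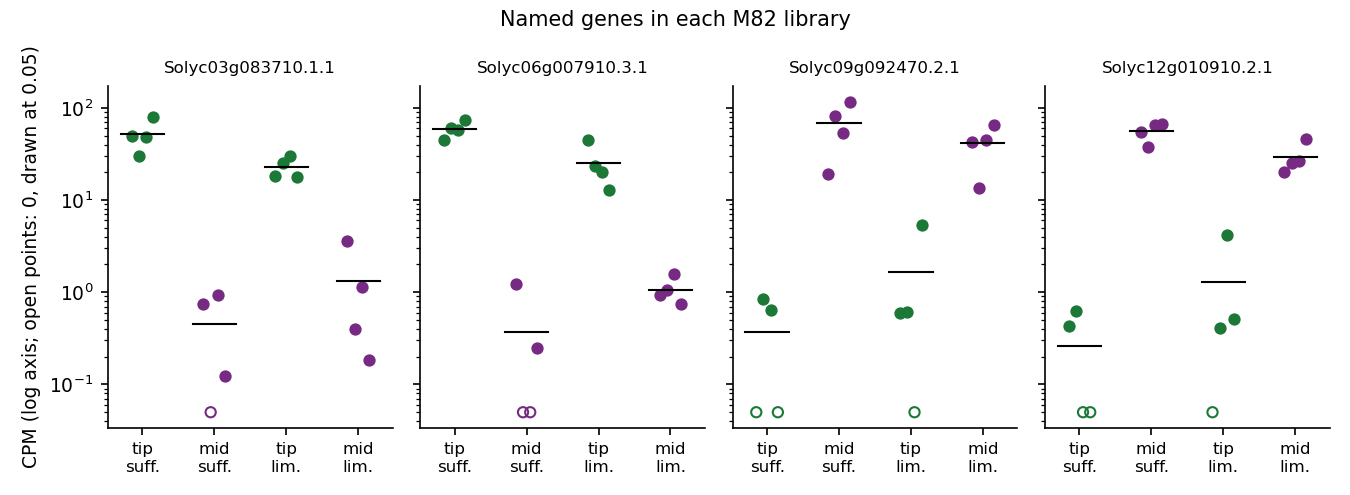
Level of the 4 named genes in each of the 16 M82 libraries, in CPM on a log axis, by position and phosphate (green tips, purple midsections, bars the group means, open points libraries at 0). At sufficient phosphate the lowest tip value of Solyc06g007910.3.1 is 45.1 and the highest midsection value 1.23.

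The 8 libraries at limiting phosphate give the same contrast in other samples. In the fit above they contributed to the filter, the scaling and the estimate of spread, so here they were fitted alone. Fitted in this way, they called 3127 of 16899 genes (18.5%), 1767 higher (10.5%) and 1360 lower (8.05%) in the tip. The 1767 genes held 25.5%, 29%, 28.8% and 30.3% of the counts in sufficient tips 1 to 4, and 9.76%, 8.57%, 8.12% and 7.75% in sufficient midsections 1 to 4. The groups were far apart, at 28.4 ± 2.05% and 8.55 ± 0.871% (SD, n = 4 each; exact permutation test, two-sided p = 0.0286, the smallest possible). The 1360 genes held 8.36%, 8.4%, 7.65% and 7.45% in sufficient tips 1 to 4, and 23.5%, 23.8%, 25.3% and 25.9% in sufficient midsections 1 to 4. Here too the groups did not overlap (7.96 ± 0.488% and 24.6 ± 1.16%, SD, n = 4 each; exact permutation test, two-sided p = 0.0286). Midsection replicate 1 had the highest share of tip genes and the lowest share of midsection genes among the midsections.

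**Figure D4:**
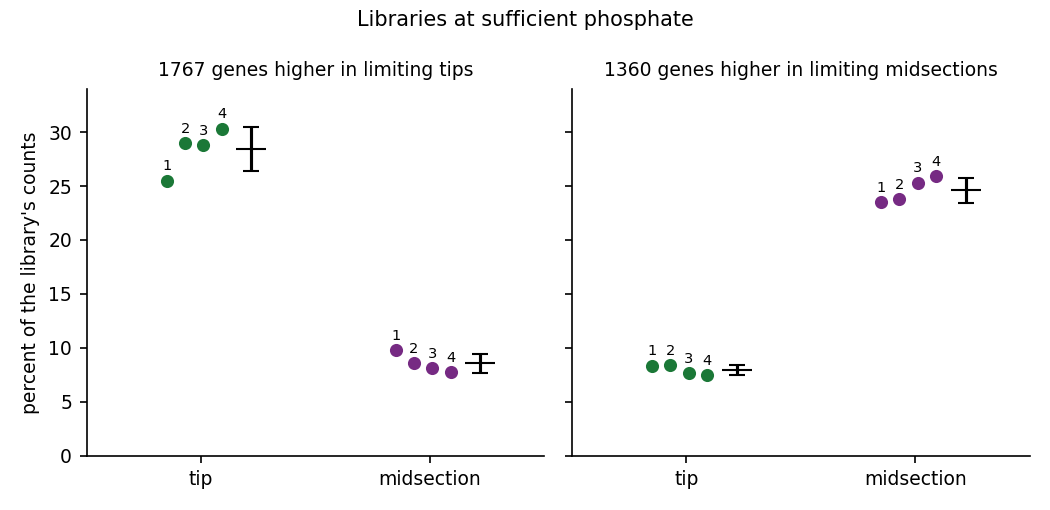
Percent of each sufficient-phosphate library's counts held by the genes called higher in the tip (left) or in the midsection (right) at limiting phosphate, a choice made without these 8 libraries. Numbers are replicates, bars mean and SD; tips hold 25.5% to 30.3% in the left panel and midsections 7.75% to 9.76%.

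Gene by gene, the direction carried over. Each phosphate level was fitted from its own 8 libraries, and 15668 genes were tested in both. Of the 3219 of these called at sufficient phosphate, 3128 (97.2%) had the same sign at limiting phosphate, against 66.3% of the 11340 genes called at neither level. Called with the same sign at both levels were 1911 genes, which is 59.4% of the sufficient calls and 63.2% of the limiting calls, and 4 were called with opposite signs.

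The difference between positions was larger at sufficient phosphate by these measures. The 3024 genes called at limiting phosphate and tested in both differed by a median of 2.86-fold there and 3.73-fold at sufficient phosphate. They were chosen where the smaller value was found. These medians ignore direction, so a wider spread between replicates raises them. Genes called at neither level also had the larger median at sufficient phosphate, 1.56-fold against 1.32-fold at limiting phosphate. How much of either difference came from spread was not tested. The 1767 tip genes held 3.32 times as large a share of counts in tips as in midsections at sufficient phosphate, and 2.52 times at limiting phosphate. For the 1360 midsection genes the ratios of midsection to tip were 3.09 and 2.25. These list values were not tested. In the test of the difference itself, 177 of 18275 genes (0.969%) passed (edgeR interaction, threshold 0.05 after adjustment). In 59 (0.323%) the value of tip minus midsection was higher at sufficient phosphate and in 118 (0.646%) it was lower. This split rested on sufficient midsection replicate 1, without which 289 genes passed, 144 higher and 145 lower. The total was 100 to 289 with any 1 library left out. With all libraries, of the genes called higher in the tip at sufficient phosphate, 56 had a larger and 2 a smaller contrast there than at limiting phosphate, and of those called lower, 114 had a larger and 0 a smaller contrast. The sufficient libraries enter both tests, which favours larger contrasts there.

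Many calls present at sufficient phosphate were absent at limiting phosphate without a shown difference. In the fit of all 16 M82 libraries 1908 genes (10.4%) were called at limiting phosphate, 1128 higher (6.17%) and 780 lower (4.27%) in the tip. Of the 2496 genes higher in the tip at sufficient phosphate, 1513 were not called at limiting phosphate, and 23 of these passed the interaction test. Of the 2496 lower genes, 1824 were not called, and 69 of these passed. The gap between 4992 and 1908 calls nearly closed when each phosphate level was fitted from its own libraries (3272 and 3127). Those fits also tested other numbers of genes and used fewer samples, and which of these changes closed the gap was not tested. The biological coefficient of variation is the typical spread between replicates beyond counting error. It was 0.791 and 0.796 in sufficient tips and midsections and 0.71 and 0.481 in limiting ones. In the fit of all 4 groups together it was 0.69, below both sufficient groups and limiting tips and above limiting midsections.

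The genes over 16-fold apart at sufficient phosphate were followed into the limiting libraries. The 731 tip-high genes held 5.77 ± 1.07% of counts in sufficient tips and 3.87 ± 0.392% in limiting tips (SD, n = 4 each), and 398 of them (54.4%) were called at limiting phosphate. The 482 midsection-high genes held 0.0847 ± 0.0334% of counts in sufficient tips and 0.51 ± 0.0591% in limiting tips, and 2.69 ± 0.28% and 1.72 ± 0.121% in sufficient and limiting midsections (SD, n = 4 each). Of these, 154 (32.0%) were called at limiting phosphate. The interaction test called 21 of the 731 and 70 of the 482. Both sets were chosen at sufficient phosphate, which by itself lowers their contrast elsewhere, and the difference between the sets was not tested.

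**Figure D5:**
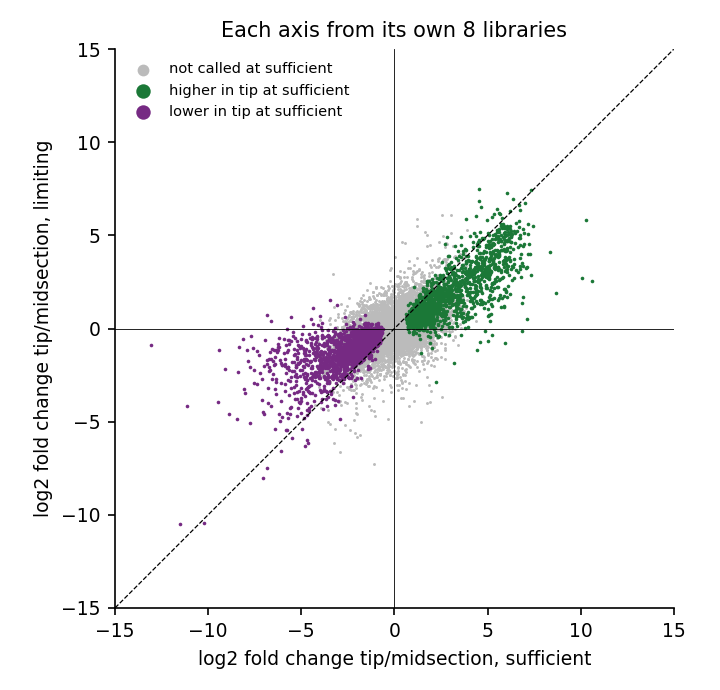
Log2 fold change of tip over midsection at sufficient phosphate (horizontal) and at limiting phosphate (vertical) for 15668 genes, each axis fitted from its own 8 libraries; the dashed line marks equal values. Green and purple genes, called higher and lower in the tip at sufficient phosphate, keep their sign in 97.5% and 96.8% of cases and lie mostly nearer to 0 on the vertical axis.

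Called genes were spread over every chromosome. Over the 12 chromosomes named in the IDs, 24.7% (chromosome 8) to 31.8% (chromosome 7) of tested genes were called, against 27.3% of all. Genes higher in the tip made up 12.1% (chromosome 3) to 16.9% (chromosome 7), and genes lower in the tip 12.0% (chromosome 8) to 14.9% (chromosome 7). These shares are given without a test.

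Among called genes, immediate neighbours shared a direction more often than distant pairs, a count given without a test. Of 1031 pairs of adjacent IDs that were both called, 627 (60.8%) had the same direction, whereas pairs 2 to 100 IDs apart did so in 47.7% to 52.8% of cases. Restricted to genes without fractional estimates, the shares were 57.5% for adjacent pairs and 47.0% to 51.7% further apart. The longest run of tested neighbours called in 1 direction was 7 genes within 14 IDs on chromosome 7, with means of 9.53 to 431 CPM in the tip and 0.358 to 6.03 CPM in the midsection. A run of 6 on chromosome 3 reached 57.9 to 1680 CPM in the tip and 0.305 to 30.1 CPM in the midsection. The longest run higher in the midsection was 6 genes on chromosome 4, at 2.82 to 143 CPM there. Fractional estimates occurred in 4, 6 and 6 genes of these runs, so single levels within them are uncertain.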

How the data were processed

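BrAD-seq libraries, which keep strand and read transcript 3' ends, were sequenced as single reads of 50 bases, per the labels' protocols. The submitters' processing notes list limma, edgeR, Bowtie 1.2.2 and FastQC. Not given in the sources used here are the genome build, the annotation and the program behind the deposited estimated counts per gene model. Of the deposited M82 values 7.57% were fractional. The table of the second species was not used, and 0 sample columns of the M82 table were left out.

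Estimated counts were rounded, filtered by filterByExpr (minimum count 10, minimum total 15), scaled by TMM and fitted with edgeR 4.0.16 under R 4.3.3 (robust quasi-likelihood fit, Benjamini-Hochberg adjustment, threshold 0.05) on the 16 M82 libraries in 4 groups. The test against 2-fold was glmTreat. Standard errors come from the log2 fold change and its F statistic, and are no measure of precision where a group holds few counts. Counts were simulated for 17741 genes, with 50 genes changed at each of 2, 4, 16 and 64-fold between sufficient tips and midsections. Of these, 16%, 34%, 72% and 80% were called, with 3 false calls among 104. Far fewer genes were changed than were called in the data, which makes the adjusted threshold stricter. Each simulated gene also had the same spread in all 4 groups, so false calls from unequal spread could not show. The simulated rates therefore do not carry over to the data. Alternatives were RLE scaling, DESeq2 1.42.0, limma-voom (limma 3.58.1), other filters, no rounding, thinning, a replicate block, 2-group fits and leaving out each library. The series' design text calls the replicates biological.

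The comparison and its lists were chosen with earlier results of these data known. Gene lists by function could not be filled, as no source used here pairs the IDs with names. Named genes are the 2 highest and 2 lowest log2 fold changes among called genes with non-overlapping groups, 50 CPM or more in the higher group and no fractional estimate in the 8 libraries.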

Additional observations from a re-analysis of the deposited data

Results flagged for a closer look

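For Solyc09g092470.2.1, the tips at limiting phosphate held 1 library far above the others, replicate 4 at 5.38 CPM, where the other 3 lay between 0 and 0.608 CPM. For Solyc12g010910.2.1, the library far above the rest was limiting tip replicate 3 at 4.2 CPM, against 0 to 0.508 CPM in the others. The threshold is set so that chance passes it in about 1 in 20 groups of normally distributed values, and the rate for levels near 0 was not computed. The contrast between tip and midsection differed between sufficient and limiting phosphate in 177 genes (edgeR interaction test, adjusted p under 0.05).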

How the results depend on the processing

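Of the 4992 calls, 2891 (57.9%) were made with the same sign under all 17 alternatives (1400 higher and 1491 lower in the tip), 3242 in each of the 8 fits that left out 1 library, and 0 were called with the opposite sign in any. The number called was 3272 from the 2 groups alone, which tests fewer genes with fewer samples, and lay between 4264 and 4945 with 1 library left out and between 4604 and 6139 otherwise. Beyond 2-fold it was 1955 to 2325 with 1 library left out, up to 2376 otherwise, and 1629 from the 2 groups alone (824 higher and 805 lower). The even split of the 4992 calls moved with the fit. It was 3246 higher and 2893 lower under limma-voom, and 2326 higher and 2619 lower without sufficient tip replicate 4. At limiting phosphate the 1908 calls became 3127 from the 2 groups alone and 3154 with limma-voom (the cause was not tested), and 1401 to 1646 with 1 library left out. The 177 interaction calls became 514 with DESeq2 (the cause was not tested) and 100 to 289 with 1 library left out, namely 289 without sufficient midsection replicate 1, 113 without sufficient midsection replicate 4, and 110 and 100 without limiting midsection replicates 2 and 3. With the replicate number as a block the counts were 4724, 2181, 1915 and 184 in the same order. Deviations of same-numbered tips and midsections correlated at -0.0238 to 0.0451 at sufficient and 0.023 to 0.0982 at limiting phosphate, across genes, and not every library correlated best with its own number, so the numbers were not taken as pairs.

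With 1 library left out, the difference in detected genes ranged from -214 to 1100, and that in the share of the 100 most abundant genes from 0.477 to 1.26 percentage points. The list shares, chosen after seeing the data, differed by 19.2 to 20.8 and by -17 to -16.2 percentage points. All 4 named genes stayed called in the same direction under each of their 17 alternatives, with adjusted p up to 0.000459. They were chosen for large differences in these same libraries, which by itself favours this result. Depth limits the low genes most, and in the shallowest library 3 counts amount to 2.79 CPM.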
